A study of Mus musculus with 42 samples.

Results

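Neutrophil attractants and their receptors were followed in mouse spleen over 14 days after an injection that engages TLR9. The group held 8 genes: the chemokines Cxcl1, Cxcl2 and Cxcl5, and the receptors Cxcr2, Fpr1, Fpr2, Ltb4r1 and Csf3r. A member was measured where the array's annotation gave a feature its symbol and no other, and features of a symbol were averaged. This gave 7 of the 8 members, on 11 features, among 15277 genes in all. Fpr1 had no such feature and was not analysed here. Csf3r had 4 features, Cxcr2 had 2, and Cxcl1, Cxcl2, Cxcl5, Fpr2 and Ltb4r1 had 1 each.

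Spleen RNA came from female BALB/c mice, and each of 42 arrays set one spleen sample, in Cy5, against a universal mouse reference RNA, in Cy3. The 6 untreated spleens were compared with groups of 4: mice given control ODN (the oligodeoxynucleotides 1612 and 1471, equimolar) whose spleens were taken at 3 h, and mice given CpG ODN (1555 and 1466, equimolar), with spleens taken at 8 times: 3 h, 9 h, 24 h and 72 h, and after 5, 7, 9 or 14 days. Both mixtures were injected into the peritoneum at 400 µg, all mice were of one strain and sex, and no age is used here. The reference RNA, a mixture of tissues that itself holds macrophages and lymphocytes, is common to all arrays. The series describes the samples as independent biological replicates, and control ODN was measured at 3 h alone, so the later CpG times have no control ODN group of their own time.

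Neutrophils find inflamed tissue by graded signals. The chemokines CXCL1, CXCL2 and CXCL5 act on CXCR2, formyl peptides and related ligands act on the FPR receptors, leukotriene B4 acts on the BLT1 receptor encoded by Ltb4r1, and the growth factor G-CSF acts on the receptor encoded by Csf3r to drive the making and release of neutrophils from marrow. The spleen holds a pool of neutrophils, and in mice it can also make granulocytes outside the marrow, while CpG ODN reach the endosomal receptor TLR9, which signals through MyD88 to NF-κB.

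All values are log2 ratios of spleen over reference, with base and direction inferred from the values, so they rank groups for 1 gene and not genes against each other. Each difference comes from a limma fit of all 42 arrays. It is given ± its standard error, and a gene was called at a Benjamini-Hochberg adjusted p below 0.05 over all genes tested in that comparison. "Rose" and "fell" are used for called differences only. Array medians lay between -0.014 and 0.019, and 173 to 1740 features had no value on an array. In whole spleen, fewer cells of a type and less RNA per cell cannot be told apart. The arrays also fall into 10 runs of the database numbers in their titles: 5 of the 6 untreated arrays make up 1 run, the other untreated array lies with CpG 3 h replicates 3 and 4, and control ODN, CpG 72 h, 7 days and 14 days share another. For control ODN and every CpG time from 72 h on, run and group therefore cannot be told apart in the comparison with untreated spleens. CpG 9 h and 24 h share no run with untreated arrays either, and are linked to them only through CpG 3 h arrays. Spleen markers were above the reference in untreated arrays: the mean of 3 B cell genes was 3.79 ± 0.28 (SD, n = 6), of 4 T cell genes 2.23 ± 0.26 and of 2 erythroid genes 3.72 ± 0.26.

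The stretch of 150 bases before the start is shown for 4 of the genes. Cxcl1 and Cxcl2 were taken because they lie next to each other and shared the early rise. Csf3r holds the same kind of match without a called rise at 3 h in the mean of its features (1 of 4 rose). Fpr2 rose with no such match. Sequences are from RefSeq on build GRCm38.p6, in the direction of the gene, and all 4 genes lie on the plus strand. Cxcl1 is taken at chr5:90891095-90891244, Cxcl2 at chr5:90903749-90903898, Csf3r at chr4:126024509-126024658 and Fpr2 at chr17:17887674-17887823. Capitals mark matches to the κB consensus or to TATAAA.
Cxcl1: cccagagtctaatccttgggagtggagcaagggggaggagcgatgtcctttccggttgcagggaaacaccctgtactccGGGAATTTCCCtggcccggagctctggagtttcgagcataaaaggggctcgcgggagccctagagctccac
Cxcl2: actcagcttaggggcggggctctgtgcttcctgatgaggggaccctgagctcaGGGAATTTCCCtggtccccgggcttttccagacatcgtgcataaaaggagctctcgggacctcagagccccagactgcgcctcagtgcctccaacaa
Csf3r: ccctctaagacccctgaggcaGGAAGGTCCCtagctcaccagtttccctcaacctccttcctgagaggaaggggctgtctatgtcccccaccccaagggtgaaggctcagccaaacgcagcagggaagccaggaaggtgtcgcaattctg
Fpr2: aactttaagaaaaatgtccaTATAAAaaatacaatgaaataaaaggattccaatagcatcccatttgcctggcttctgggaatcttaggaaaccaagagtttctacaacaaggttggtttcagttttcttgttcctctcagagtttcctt

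Motifs were searched on both strands from 250 bases before to 50 after the start, in the 7 members the promoter table holds. Cxcl5 has no entry there. A κB match begins at -71 in Cxcl1, at -97 in Cxcl2 and at -129 in Csf3r, and 8.46% of 32851 mouse promoters hold one. In Cxcl1 and Cxcl2 the match reads on both strands, shifted by 1 base, over the same 11 letters, GGGAATTTCCC. TATAAA, in 13.6% of promoters, was found in Fpr2 at -130 and in Fpr1 at -227. TTCNNNGAA, in 8.30%, was found in Fpr2 at -77, and TTGCNNAA, in 10.8%, in none of the 7. GAGGAA, the core bound by PU.1, is in 28.3% of promoters and was found in Cxcr2, Csf3r, Cxcl2, Ltb4r1 and Fpr2. These matches describe letters and were not tested as sites. By the RefSeq order of genes, Cxcl1 stands between Cxcl15 and Cxcl2, Cxcl5 next to the platelet chemokine gene Ppbp, Cxcr2 next to Cxcr1, Fpr2 between Fpr1 and Fpr3, and Ltb4r1 next to Ltb4r2.

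Cxcl1, a ligand of CXCR2 that many cell types release early in inflammation, was called higher at 3 h and 9 h and at no later time. In untreated spleens its log2 ratio ran from -4.61 through a median of -4.14 to -3.96. With control ODN the values in replicate order were -4.10, -4.18, -3.62 and -4.12. At CpG 3 h they were -1.78, -1.31, -1.73 and -1.54. Every CpG 3 h array lay above every untreated and every control ODN array. Cxcl1 rose by 2.60 ± 0.26 over untreated spleens, a 6.06-fold difference (adjusted p = 4.08e-10), and by 2.41 ± 0.28 over control ODN (adjusted p = 2.93e-08). At 9 h the 3 arrays with a value, replicates 2 to 4, stood at -3.16, -4.01 and -2.69. One of these lay within the untreated range and the others above it. The 9 h level was still higher than untreated (0.90 ± 0.28, adjusted p = 0.0357), a call lost without untreated replicate 1, 2 or 6 (adjusted p = 0.0636, 0.077 and 0.0556). It had fallen from 3 h by 1.70 ± 0.30 (adjusted p = 0.000828), and from 9 h to 24 h it fell by another 1.02 ± 0.30 (adjusted p = 0.0286). From 24 h to 14 days the group means lay between -4.63 and -4.09, and no difference from untreated spleens was called. Some arrays of these groups lay above the untreated range and others below it. CpG 3 h was the highest group and CpG 9 h the next. The 8 others, between -4.63 and -4.01, lay close together against SDs of up to 0.575 within a group.

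Cxcl2, the neighbour of Cxcl1 and also a CXCR2 ligand, was likewise high at 3 h and 9 h. Untreated values ran from -0.44 through a median of -0.33 to -0.20, and those with control ODN were -0.70, -0.20, -0.08 and -0.11. At CpG 3 h they were 1.59, 1.56, 1.77 and 1.73. The CpG 3 h arrays lay close together and far above both control groups. Cxcl2 rose by 2.00 ± 0.21, or 4.01-fold, over untreated (adjusted p = 1.66e-09) and by 1.93 ± 0.23 over control ODN (adjusted p = 4.30e-08). At 9 h the arrays read 0.22, 0.01, 0.05 and 1.76. All of them were above the untreated range, but replicate 4 stood at the 3 h level. The difference at 9 h was 0.85 ± 0.21 (adjusted p = 0.00629), and without replicate 4 it was 0.43 (adjusted p = 0.0987). Cxcl2 fell from 3 h to 9 h by 1.15 ± 0.23 (adjusted p = 0.00321) and from 9 h to 24 h by 0.89 ± 0.23 (adjusted p = 0.0124). At 72 h the values were -0.98, -0.68, -1.03 and -0.52, all below the untreated range, with a difference of -0.47 ± 0.21 that was not called (adjusted p = 0.131). It was called in the fit of those 10 arrays alone (adjusted p = 0.0338).

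Cxcl5, another CXCR2 ligand, known from epithelial cells and platelets, had its high point days later. Untreated values ran from -3.59 through a median of -2.79 to -2.56, and control ODN values were -2.78, -3.17, -2.56 and -2.86. At CpG 3 h the arrays read -2.79, -2.05, -2.35 and -2.08, and at 9 h -3.22, -3.36, -3.49 and -3.33. The 3 h arrays tended above the untreated ones and overlapped them in replicate 1, and the 9 h arrays lay at the bottom of the untreated range. Neither passed against untreated (0.59 ± 0.23, adjusted p = 0.0991, or 0.0495 without CpG 3 h replicate 1, and -0.45 ± 0.23, adjusted p = 0.285), but the fall from 3 h to 9 h by 1.04 ± 0.25 was called (adjusted p = 0.0240). At 72 h the values were -1.38, -2.01, -1.53 and -2.88. Replicates 1 to 3 were above every untreated array and replicate 4 was within their range. Cxcl5 rose by 0.95 ± 0.23, or 1.94-fold, at 72 h (adjusted p = 0.00509), and the difference was 1.26 without replicate 4 (adjusted p = 0.000165). At 5 days the arrays read -1.86, -2.05, -2.43 and -2.88, a difference of 0.60 ± 0.23 at the edge of the threshold (adjusted p = 0.0464). That call was lost in 10 of 17 alternatives, 7 of them the leaving out of 1 array: untreated replicate 1, 2, 4 or 6, or CpG 5 days replicate 1, 2 or 3, with adjusted p up to 0.18. Within the run that 72 h, 7 days and 14 days share, Cxcl5 at 72 h was higher than at 14 days by 0.83 ± 0.25 (adjusted p = 0.0126), and at 7 days it was lower than at 72 h by 1.16 ± 0.25 on the log2 scale (difference -1.16, adjusted p = 0.00451).

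**Figure D1:**
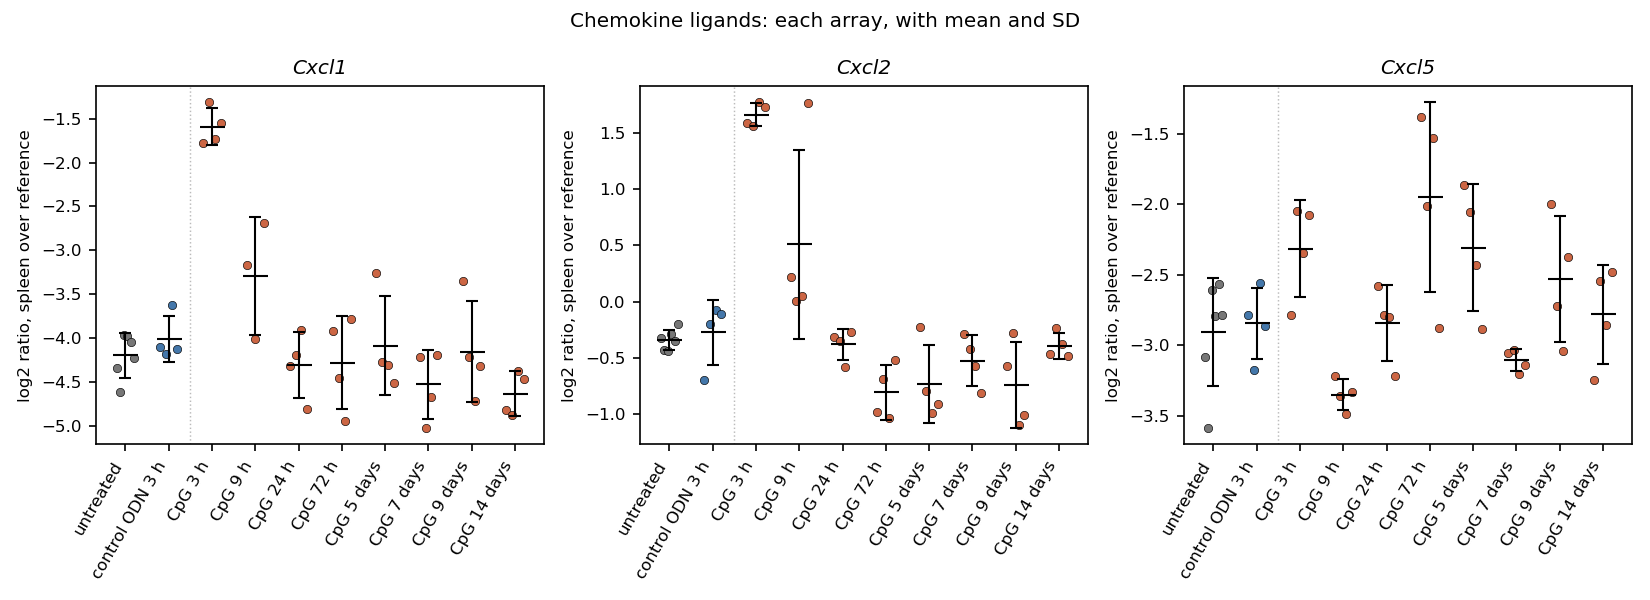
Log2 ratio of spleen over reference (y) for Cxcl1, Cxcl2 and Cxcl5 in each of the 10 groups (x). Points are arrays, bars are the group mean and SD. CpG 3 h stands alone for Cxcl1 (mean -1.59) and Cxcl2 (1.66), while Cxcl5 has its highest mean at 72 h (-1.95).

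Cxcr2, the receptor of these ligands and a marker of mature neutrophils, was highest with control ODN. After CpG it was called higher than untreated at 9 h and lower at 7 days. Untreated values ran from 2.00 through a median of 2.99 to 3.14. With control ODN they were 3.97, 4.10, 3.97 and 3.44, and at CpG 3 h 3.17, 3.52, 3.43 and 2.87. Every control ODN array lay above every untreated one, and the CpG 3 h arrays sat between, overlapping both. Cxcr2 rose with control ODN by 1.08 ± 0.18, or 2.12-fold (adjusted p = 0.00544), and its 2 features rose by 1.01 and 1.16. With quantile normalization between arrays this difference was 0.58 (adjusted p = 0.0434). It was not called without control ODN replicate 1 (adjusted p = 0.0583) or in a fit of the 10 arrays alone (adjusted p = 0.0956). CpG 3 h did not pass against untreated (0.46 ± 0.18, adjusted p = 0.0920, or 0.0422 without CpG 3 h replicate 4). It was lower than control ODN (-0.63 ± 0.19, adjusted p = 0.0190), where neither feature passed alone and the call was lost without CpG 3 h replicate 4 or control ODN replicate 1, 2 or 3. One of the features had no value in CpG 3 h replicate 4, whose value is that of the other. At 9 h the arrays read 3.45, 3.73, 3.37 and 3.43, all above the untreated range, and Cxcr2 rose by 0.71 ± 0.18 (adjusted p = 0.00651, and 0.44 with adjusted p = 0.0517 after quantile normalization, 1 of 6 alternatives out of 18 without a call). At 7 days they read 1.93, 2.39, 2.25 and 2.31, the lowest group, and Cxcr2 fell by 0.56 ± 0.18 (adjusted p = 0.0248). That fall passed in neither feature alone and was lost in 7 of 17 alternatives, 5 of them the leaving out of untreated replicate 1, 2 or 3 or of CpG 7 days replicate 1 or 3. Within their common run, 7 days was below 72 h by a difference of -0.75 ± 0.19 (adjusted p = 0.0201). Against 14 days in the same run, the 7 day difference of -0.48 ± 0.19 did not pass (adjusted p = 0.0705).

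Fpr2, a receptor for formyl peptides and for serum amyloid A and annexin A1, showed the largest differences of the 7 genes, with the widest spread. Untreated replicates 1 to 6 read 2.42, 2.36, 0.13, 0.27, 0.28 and -0.19. Replicates 1 and 2 stood apart from the other 4. With control ODN the values were 3.12, 3.52, 1.30 and 0.51, and at CpG 3 h 6.40, 4.10, 4.29 and 5.15. Control ODN overlapped the untreated range in replicates 3 and 4, and every CpG 3 h array was above both groups. Fpr2 rose at 3 h by 4.10 ± 0.75, or 17.2-fold, over untreated (adjusted p = 9.16e-05) and by 2.87 ± 0.82 over control ODN (adjusted p = 0.0109, 0.0516 without CpG 3 h replicate 1). Against the 1 untreated array of its own run, replicate 2, the mean of CpG 3 h replicates 3 and 4 was higher by 2.36, and with runs as a fixed block this did not pass (adjusted p = 0.54). The control ODN difference of 1.23 ± 0.75 did not pass (adjusted p = 0.324).

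Fpr2 was still high at 9 h, with 4.49, 4.09, 3.23 and 3.20, all above the untreated range (2.87 ± 0.75, adjusted p = 0.00952). This call was lost with the replicate block (2.46, adjusted p = 0.0614), without the arrays with many missing values (2.64, adjusted p = 0.0808) and with runs as a fixed block, where the difference was 0.86 (adjusted p = 0.96). At 24 h it read 4.49, 1.72, 3.81 and 3.75, with replicate 2 inside that range (2.56 ± 0.75, adjusted p = 0.0211). The 24 h call was lost without CpG 24 h replicate 1 (adjusted p = 0.0820), without replicate 3 (0.0784) or without untreated replicate 6 (0.0530). It was also lost with the replicate block (2.14, adjusted p = 0.0994), without the arrays with many missing values (2.44, adjusted p = 0.0585) and with runs as a fixed block, where the difference was 0.20 (adjusted p = 0.978). At 72 h the arrays read 6.59, 6.50, 4.98 and 0.83. Replicates 1 and 2 were the highest arrays of the series, replicate 3 lay among those of 3 h, and replicate 4 was inside the untreated range. The difference was 3.85 ± 0.75 (adjusted p = 0.000619), and 5.14 without replicate 4 (adjusted p = 5.69e-07). The step from 24 h to 72 h, 1.285 ± 0.821, was not called (adjusted p = 0.431). By 7 days the values were 0.44, 0.68, 1.60 and 1.56 and by 14 days 0.54, 1.03, 1.60 and 1.62, both inside the untreated range. Within the shared run, Fpr2 at 72 h was higher than at 14 days by 3.53 ± 0.82 (adjusted p = 0.00150), and 7 days differed from 72 h by -3.65 ± 0.82 (adjusted p = 0.00582). At 5 days and 9 days, with means of 2.53 and 2.43, the differences of 1.65 ± 0.75 and 1.55 ± 0.75 did not pass (adjusted p = 0.0898 and 0.170). Fpr2 has related genes in the mouse, and whether its single feature also binds their transcripts was not tested.

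Ltb4r1 encodes the high-affinity leukotriene B4 receptor, which T cells and other leukocytes carry as well as neutrophils. It was called lower at CpG 3 h and from 72 h to 9 days, and was lowest at 5 days. Untreated values ran from 1.70 through a median of 2.35 to 2.70. With control ODN they were 1.53, 1.79, 1.51 and 1.76, and at CpG 3 h 1.33, 1.62, 1.87 and 1.52. The 3 h groups overlapped each other throughout and lay low against the untreated arrays. Ltb4r1 fell at CpG 3 h by 0.69 ± 0.22 (adjusted p = 0.0296), a call lost in 7 of 18 alternatives, among them without untreated replicate 1, 3 or 4 or CpG 3 h replicate 1, 2 or 4 (adjusted p up to 0.116). The control ODN difference of -0.62 ± 0.22 was almost as large and did not pass (adjusted p = 0.0833, but 0.0410 after quantile normalization). CpG and control ODN differed at 3 h by -0.06 ± 0.24 (adjusted p = 0.884). The differences from untreated spleens at CpG 9 h (-0.34 ± 0.22, adjusted p = 0.415) and 24 h (-0.35 ± 0.22, adjusted p = 0.323) did not pass.

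At 72 h Ltb4r1 read 1.18, 1.09, 0.48 and 1.86, with replicate 4 alone inside the untreated range. At 5 days it read 0.57, 0.22, 0.11 and 0.02, at 7 days 1.08, 1.39, 1.11 and 0.92, and at 9 days 1.63, 0.86, 1.11 and 1.27. At these last 3 times every array lay below every untreated one. Ltb4r1 fell by 1.12 ± 0.22 at 72 h (adjusted p = 0.000572), by 2.04 ± 0.22 at 5 days (to 0.243 of the untreated ratio, adjusted p = 1.43e-08), by 1.14 ± 0.22 at 7 days (adjusted p = 0.000376) and by 1.05 ± 0.22 at 9 days (adjusted p = 0.00106). At 14 days it read 1.25, 2.03, 2.13 and 2.03, overlapping the untreated arrays in all but replicate 1 (-0.41 ± 0.22, adjusted p = 0.278). From time to time it fell from 24 h to 72 h (-0.77 ± 0.24, adjusted p = 0.0468) and from 72 h to 5 days (-0.92 ± 0.24, adjusted p = 0.0263), and rose from 5 to 7 days (0.90 ± 0.24, adjusted p = 0.0308). Within the shared run both 72 h and 7 days were below 14 days (-0.71 ± 0.24, adjusted p = 0.0224, and -0.73 ± 0.24, adjusted p = 0.0240). T cell markers were low at these times and also at 9 h, when Ltb4r1 was not called: 2 of 4 fell at 9 h, with a list mean of 1.50 ± 0.26 (SD, n = 4), all 4 fell at 5 days, with a list mean of 0.99 ± 0.19 (SD, n = 4), and 3 of 4 fell at 72 h, 7 days and 9 days. Of the 3 B cell genes only Cd79b fell at those 4 times. Among all genes 6.01%, 13.4%, 6.89% and 5.12% were called lower at 72 h, 5 days, 7 days and 9 days. At 9 h 8.52% were called in either direction. The part of T and B cells in the Ltb4r1 values was not tested.

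Csf3r, the G-CSF receptor, as the mean of its features with a value, was called against untreated spleens at 9 days. Its 4 features did not behave alike, and not all of them had a value on every array. The gene difference is therefore not the mean of the feature differences, which was 0.77 at 9 days. Untreated values ran from 0.52 through a median of 0.81 to 1.67, and control ODN values were 1.90, 2.10, 1.30 and 0.96. At CpG 9 h they were 1.93, 1.82, 1.82 and 0.91, at 9 days 1.85, 1.77, 1.27 and 1.71, and at 14 days 1.39, 1.48, 1.78 and 1.50. All these groups overlapped the untreated arrays, of which replicates 1 and 2 were the highest. Csf3r rose at 9 days by 0.70 ± 0.22, or 1.63-fold (adjusted p = 0.0300), and 3 of its 4 features rose (1.14, 1.06 and 0.98) while the other stood at -0.10. The call was lost in 10 of 17 alternatives, with adjusted p = 0.137 after quantile normalization, and without untreated replicate 3, 5 or 6 or CpG 9 days replicate 1, 2 or 4. At other times 1 of the 4 features passed alone: feature 1 at 3 h (1.10 ± 0.27, adjusted p = 0.00491), 9 h (1.27 ± 0.27, adjusted p = 0.00168) and 5 days (1.00 ± 0.30, adjusted p = 0.0110), and feature 4 at 14 days (1.12 ± 0.29, adjusted p = 0.0214). Csf3r also rose from 7 to 9 days (0.84 ± 0.24, adjusted p = 0.0366), and within the shared run 7 days was below 14 days (-0.73 ± 0.24, adjusted p = 0.0288). At 9 h the difference was 0.67 ± 0.22 (adjusted p = 0.0524, and 0.91 with adjusted p = 0.00656 without replicate 4), at 14 days 0.59 ± 0.22 (adjusted p = 0.114) and with control ODN 0.61 ± 0.22 (adjusted p = 0.0933, and 0.0158 without control ODN replicate 4).

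**Figure D2:**
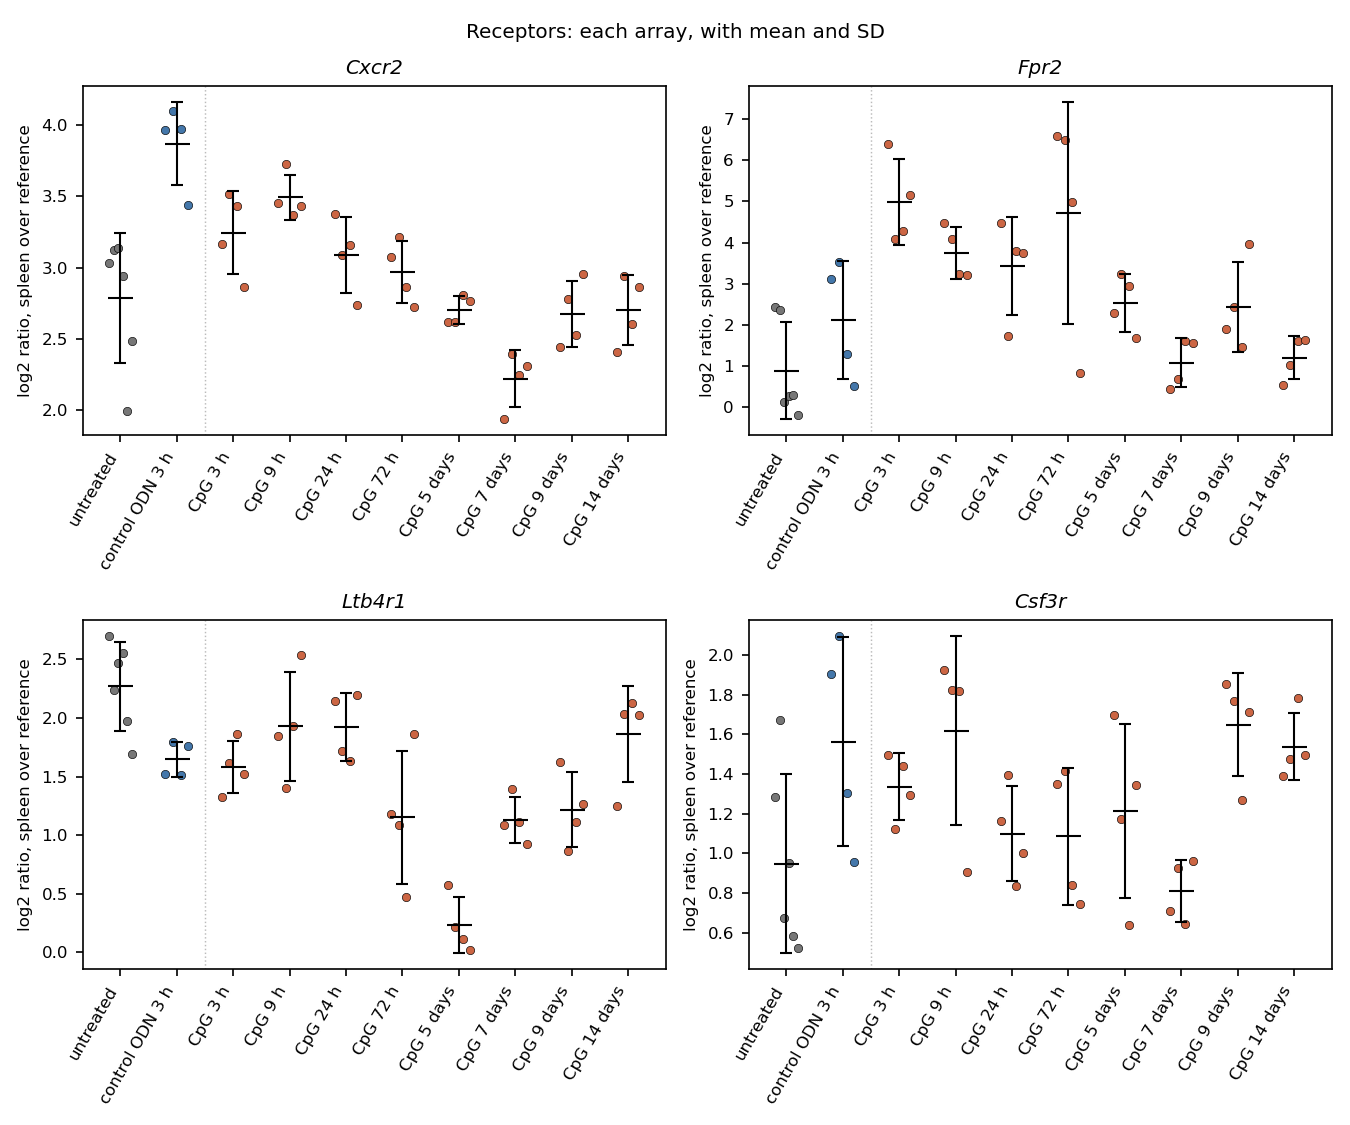
Log2 ratio of spleen over reference (y) for the 4 measured receptors in each of the 10 groups (x). Points are arrays, bars are the group mean and SD. Control ODN is the highest group for Cxcr2 (mean 3.87), 3 of 4 arrays at 72 h are high for Fpr2, and 5 days is the lowest group for Ltb4r1 (mean 0.23).

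Counted together, 3 of the 7 genes rose at CpG 3 h (Cxcl1, Cxcl2 and Fpr2) and 1 fell (Ltb4r1), where 11.6% of all genes tested were called, 7.70% higher and 3.93% lower. At 9 h 4 rose, Cxcr2 having joined, against 5.07% of all genes called higher and 8.52% in either direction. At 24 h Fpr2 alone was called, beside 8.03% higher and 10.9% in all. At 72 h Cxcl5 and Fpr2 rose and Ltb4r1 fell, against 8.94% higher, 6.01% lower and 15.0% in all. At 5 days Cxcl5 rose and Ltb4r1 fell, against 17.5%, 13.4% and 30.9%, so that 2 of 7 is near the share of all genes. At 7 days Cxcr2 and Ltb4r1 fell, against 6.89% lower and 15.6% in all. At 9 days Csf3r rose and Ltb4r1 fell, against 8.40% higher, 5.12% lower and 13.5% in all. At 14 days limma called 0 of 7, where 4.54% of all genes were called, and 1 member, Csf3r, had an unadjusted p below 0.05. Of 56 differences between the 8 CpG times and untreated spleens, 18 were called, and all these comparisons share the 6 untreated arrays. With control ODN 1 of 7 was called, Cxcr2, against 2.45% higher and 3.52% in all. Between CpG and control ODN at 3 h, Cxcl1, Cxcl2 and Fpr2 were higher and Cxcr2 lower with CpG, against 9.23% higher, 11.5% lower and 20.7% in all. The median difference over the 7 genes was 0.59 at 3 h and 0.71 at 9 h, where the median of all genes was -0.02 at both times, and between -0.20 and 0.14 at later times. With quantile normalization between arrays, the part of called genes that were higher changed from 73.7% to 60% at 24 h, from 62.1% to 51.5% at 9 days and from 69.5% to 45% with control ODN.

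**Figure D3:**
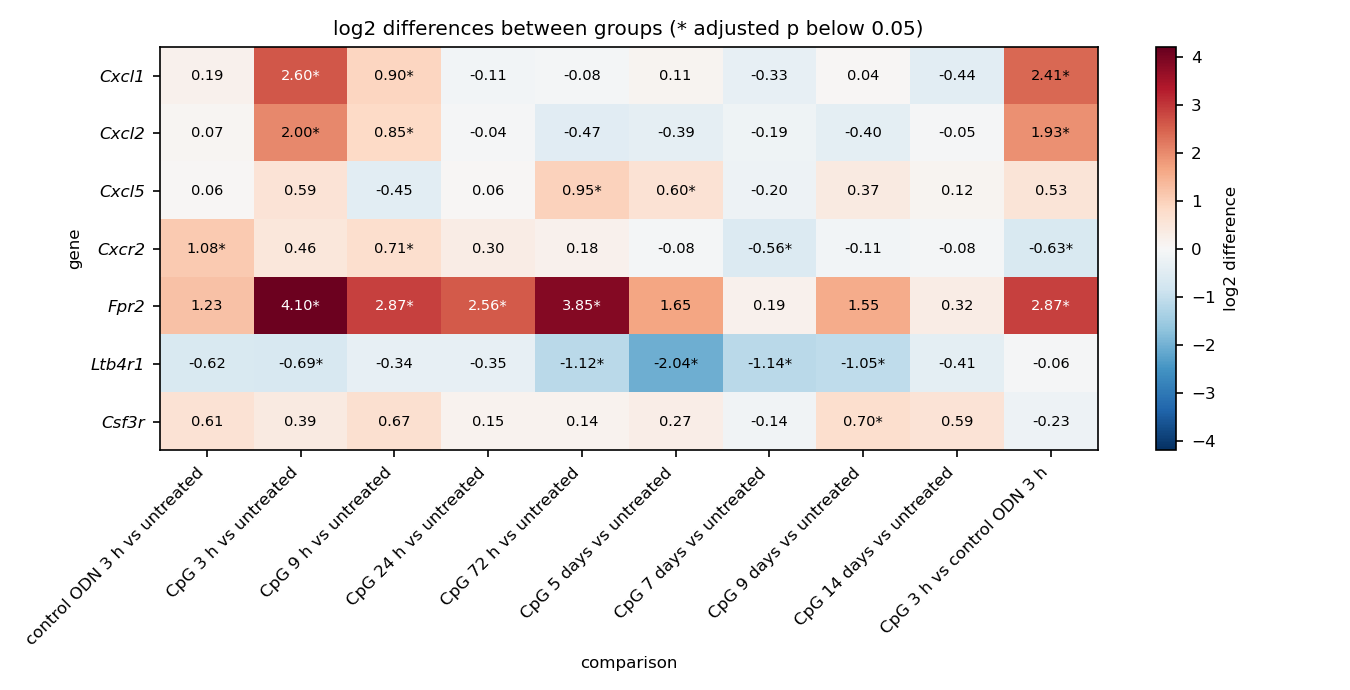
Log2 difference between groups for the 7 measured genes (rows) in 10 comparisons (columns), with a star where adjusted p was below 0.05. Fpr2 reaches 4.10 at 3 h and 3.85 at 72 h, Ltb4r1 -2.04 at 5 days, and the column of 14 days holds no star.

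Between successive CpG times 10 of 49 differences were called. From 3 h to 9 h the 3 ligands fell together, where 1.15% of all genes were called lower and 1.44% in either direction. The step from 9 h to 24 h held falls of Cxcl1 and Cxcl2 (3.31% lower, 9.70% in all). From 24 h to 72 h Cxcl5 rose, by 0.89 ± 0.25 (adjusted p = 0.0285), and Ltb4r1 fell (3.60% higher, 1.90% lower, 5.50% in all). Ltb4r1 alone fell from 72 h to 5 days (2.18% lower, 3.42% in all) and alone rose from 5 to 7 days (1.26% higher, 3.22% in all), and Csf3r alone rose from 7 to 9 days (3.03% higher, 4.93% in all). From 9 to 14 days limma called 0 of 7, beside 9.68% of all genes, and 1 member, Ltb4r1, had an unadjusted p below 0.05. All 7 genes passed the F test over the 8 CpG times, as did 62.8% of all genes. Inside the shared run, Cxcl5 and Fpr2 were higher and Ltb4r1 lower at 72 h than at 14 days (15.5% of all genes higher, 13.6% lower, 29.1% in all). Ltb4r1 and Csf3r were lower at 7 than at 14 days (10.8% lower, 21.5% in all), and Cxcl5, Cxcr2 and Fpr2 were lower at 7 days than at 72 h (2.58% lower, 3.66% in all).

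Where a run holds arrays of both groups, differences can be read within it. The mean of CpG 3 h replicates 3 and 4 over untreated replicate 2 was 2.98 for Cxcl1, 2.18 for Cxcl2 and 1.38 for Cxcl5. For Cxcr2 it was 0.02, for Ltb4r1 -0.55 and for Csf3r -0.31. Both early ligands thus differed as much within the run as over all arrays, on 1 untreated array. Another run held all 9 h arrays with 2 of 3 h and 3 of 24 h. In it the change from 3 h to 9 h was -1.74 for Cxcl1, -1.07 for Cxcl2, -0.93 for Cxcl5 and -1.50 for Fpr2, and that from 9 h to 24 h was -1.01 for Cxcl1 and -0.91 for Cxcl2.

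The neutrophil markers are given beside the receptors. Of 15 listed granule and mature neutrophil genes 13 were measured, with Ly6g and Cebpe not analysed here. Of the 13, 5 rose at 3 h, 4 at 9 h and 5 at 24 h, where 7.70%, 5.07% and 8.03% of all genes were called higher. At 72 h 6 rose and 1 fell, at 5 days 7 and 1, at 7 days 9 and 1, at 9 days 11 rose and at 14 days 12, beside 15.0%, 30.9%, 15.6%, 13.5% and 4.54% of all genes called in either direction. Mmp8, the neutrophil collagenase, was already up at 3 h (2.94 ± 0.38), as was Lcn2, which binds bacterial siderophores (2.64 ± 0.32). The secondary granule gene Ngp differed by 0.07 ± 0.46 at 3 h and rose by 4.52 ± 0.46 at 9 days. The mean of the 10 genes measured on all arrays was 2.28 ± 0.33 (SD, n = 6) in untreated spleens and 3.15 ± 0.63 (SD, n = 4) with control ODN. At 3 h it was 2.93 ± 0.21, at 72 h 3.24 ± 0.68, at 9 days 4.66 ± 0.19 and at 14 days 4.30 ± 0.18. At 9 days, with this mean at its highest, Csf3r was at its own highest mean (1.65). Csf3r was close to that at 9 h (1.62), with the marker mean at 3.29. It was lowest at 7 days (0.81), with the marker mean at 3.44. At 9 days Cxcr2 (2.68) and Fpr2 (2.43, not called) were no higher than in several earlier groups. With control ODN 2 of 13 rose, S100a9 (1.86 ± 0.39) and Mmp8 (1.56 ± 0.38), beside the rise of Cxcr2. Of all genes 2.45% were called higher with control ODN. Control ODN replicate 4, the lowest of its group for Cxcr2, Fpr2 and Csf3r, was also lowest for the marker mean (2.32, the others 3.13 to 3.81). It was lowest in 7 of the 9 marker lists, B cell genes (3.61, the others 4.36 to 4.90) and monocyte and macrophage genes (1.80, the others 2.18 to 2.51) among them, so its low values are not those of neutrophil genes alone. CpG 72 h replicate 4, the low array for Fpr2 and Cxcl5, was likewise lowest (2.27, the others 3.28 to 3.83). It too was lowest in 7 of the 9 lists, among them monocytes and macrophages (1.98, the others 2.41 to 2.63), platelets (2.01, the others 2.79 to 2.87), B cells (2.92, the others 3.30 to 3.66) and erythroid cells (3.43, the others 3.89 to 4.38). The part of neutrophil content in the receptor values was not tested.

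**Figure D4:**
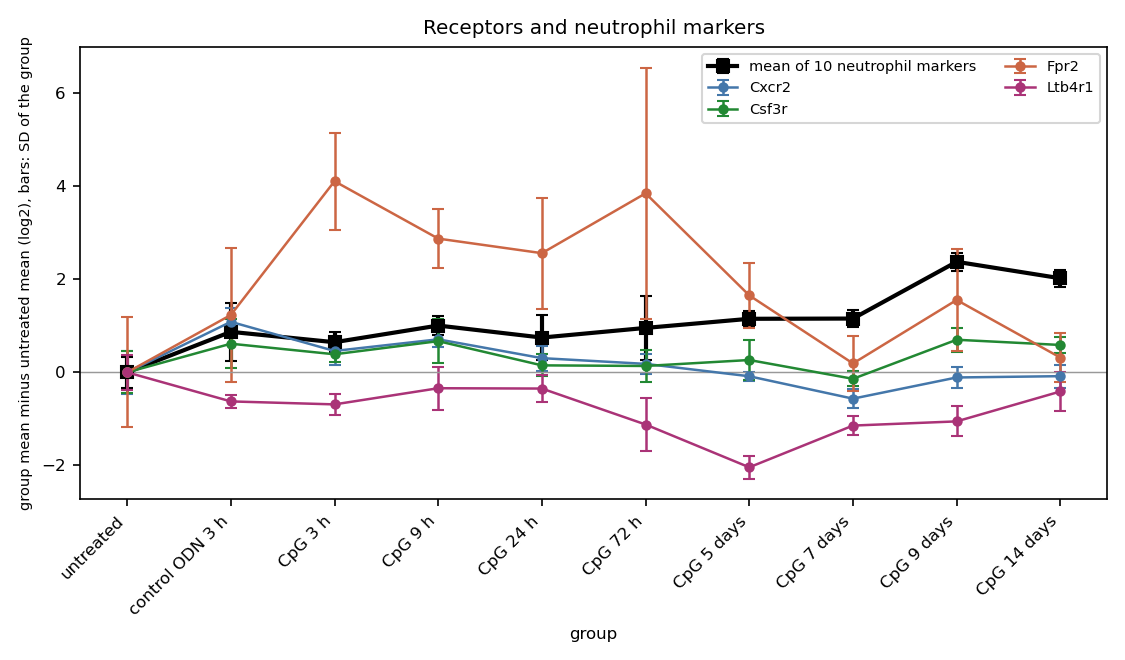
Group mean minus the untreated mean (y, log2) for 4 receptors and for the mean of 10 neutrophil markers, by group (x). Bars are the SD of each group. The marker mean is highest at 9 days, when Csf3r is also at its highest mean, close to those at 9 h, with control ODN and at 14 days. Fpr2 has its highest means at 3 h and 72 h, with no called step between successive CpG times. Ltb4r1 stays below its untreated mean.

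Markers of other cells moved as well, and their part in the members' values was not tested. Of 10 monocyte and macrophage genes 3 rose and 1 fell at 3 h, 4, 4 and 2 rose at 9 h, 24 h and 72 h, with 3 falling at 9 h, and 3 rose with control ODN. Of all genes 7.70%, 5.07%, 8.03% and 8.94% were called higher at these CpG times, and 2.45% with control ODN. At 3 h 3.93% were called lower, and at 9 h 8.52% were called in either direction. The endotoxin co-receptor gene Cd14 rose by 3.38 ± 0.25 at 3 h. The list mean was 1.62 ± 0.21 in untreated spleens, 2.20 ± 0.08 at 3 h, 2.41 ± 0.17 at 24 h and 2.37 ± 0.28 at 72 h, and 1.59 to 1.83 from 5 to 14 days. Of 6 platelet genes 1 rose at 72 h, 4 at 5 days, 6 at 9 days and 1 at 14 days, and 2 rose with control ODN. Of 4 mast cell and eosinophil genes 4 rose at 9 days and 3 at 14 days. Beside these counts, 17.5% of all genes were called higher at 5 days and 8.40% at 9 days. At 14 days 4.54% were called in either direction. Among 7 endothelial and stromal genes at most 1 was called in any comparison, and among 3 erythroid genes likewise. Of 4 pancreas acinar genes limma called 0 in each of the 10 comparisons with untreated or control ODN arrays, with at most 1 at an unadjusted p below 0.05, but their mean ranged from -0.11 to 5.89 between arrays and varied within groups. In untreated replicates 1 and 2, which were high for Fpr2, it was 3.40 and 0.24.

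Of the other signals of the pathway, 10 of 13 listed genes were measured. At 3 h 3 rose: the acute-phase gene Saa3 (1.97 ± 0.25), Anxa1, whose product annexin A1 acts on FPR2 (0.96 ± 0.23), and the complement C5 gene Hc (0.72 ± 0.20). At 9 h 2 rose, Saa3 (2.64 ± 0.25) and Anxa1 (0.81 ± 0.23), and at 24 h Saa3 alone (1.64 ± 0.25). Later Ppbp, a CXCR2 ligand of platelets that also stands in the platelet list, rose at 72 h (1.25 ± 0.34), 9 days (1.27 ± 0.34) and 14 days (1.32 ± 0.34). Anxa1 rose again at 9 days (1.42 ± 0.23) and 14 days (1.43 ± 0.23), and Alox5, which starts leukotriene synthesis, at 9 days (0.53 ± 0.18). Csf3, the gene of G-CSF, was not called at CpG 3 h against untreated spleens and fell at 5 days (-0.84 ± 0.32). At 3 h it was higher with CpG than with control ODN (1.23 ± 0.35). The leukotriene synthesis genes Lta4h (-0.81 ± 0.20) and Alox5ap (-0.62 ± 0.21) were lower in that comparison. At 7 days and with control ODN limma called 0 of 10, with 1 and 3 at an unadjusted p below 0.05. The call of Alox5 was lost in 12 of 17 alternatives and that of Csf3 at 5 days in 8 of 17. Of all genes 7.70%, 5.07% and 8.03% were called higher at 3 h, 9 h and 24 h, and 8.94% and 8.40% at 72 h and 9 days. The 1 of 10 that rose at 24 h and at 72 h is thus near the share of all genes. At 5 days 13.4% were called lower, and at 14 days 4.54% were called in either direction. Between CpG and control ODN 9.23% were higher and 11.5% lower. The list median was 0.26 at 3 h and 0.15 at 9 days.

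Of 17 other receptors of these cells 11 were measured. At 3 h 1 rose, Csf2rb, the shared receptor chain for GM-CSF (0.81 ± 0.20), a share near the 7.70% of all genes called higher. Cxcr4, which holds neutrophils in marrow, fell at 9 h (-0.89 ± 0.24), 24 h (-0.74 ± 0.24) and 72 h (-1.19 ± 0.24), and with control ODN (-0.87 ± 0.24). The monocyte receptor gene Ccr2 fell at 9 h (-1.06 ± 0.34), rose with control ODN (1.27 ± 0.34) and was lower with CpG than with control ODN at 3 h (-1.89 ± 0.37). In that last comparison 2 of 11 were higher and 1 lower, beside 9.23% and 11.5% of all genes. The GM-CSF receptor gene Csf2ra (-1.03 ± 0.35) and the gene of the platelet-activating factor receptor, Ptafr (-0.71 ± 0.19), fell at 72 h and again at 5 days (-1.07 ± 0.35 and -0.68 ± 0.19). Ackr1, a receptor that binds chemokines without signalling through G proteins, rose at 5 days (1.38 ± 0.22), 7 days (0.67 ± 0.22) and 9 days (1.29 ± 0.22). C5ar2 rose at 5 days (0.42 ± 0.16) and 9 days (0.58 ± 0.16), Csf2rb at 9 days (0.58 ± 0.20), and Il17ra fell at 7 days (-0.41 ± 0.13). The C3a receptor gene C3ar1 fell at 9 days (-0.96 ± 0.28) and 14 days (-1.78 ± 0.28). Calls lost in 10 or more of their 17 or 18 alternatives were those of Ccr2 at 9 h and with control ODN, Cxcr4 at 24 h and with control ODN, Csf2ra at 72 h, C5ar2 at 5 days and Csf2rb at 9 days. At 9 h 2 of 11 fell, at 24 h 1 and at 72 h 3. Of all genes 8.52%, 10.9% and 15.0% were called in either direction. At 5 days 2 of 10 rose and 2 fell, and at 7 days 1 rose and 1 fell, beside 30.9% and 15.6%. At 9 days 3 of 11 rose and 1 fell, at 14 days 1 fell, and with control ODN 1 rose and 1 fell. Of all genes 13.5%, 4.54% and 3.52% were called. The shares at 24 h, 5 and 7 days are near those of all genes. The list median was -0.08 at 3 h and -0.02 at 72 h.

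Of 24 listed genes of signalling and adhesion, not all of them downstream of these receptors, 22 were measured. At 3 h 7 rose, at 9 h 6 and at 24 h 7, where 7.70%, 5.07% and 8.03% of all genes were called higher. None of the list was called lower at these times. Over the alternatives other than leaving out an array, 3 to 8 of the list were called at 3 h, 1 to 6 at 9 h and 1 to 6 at 24 h. Socs3, which restrains the G-CSF receptor, rose by 3.32 ± 0.27 at 3 h and 2.14 ± 0.27 at 9 h. Rgs1, a brake on chemokine receptor signalling, rose by 2.16 ± 0.25 and 1.77 ± 0.25 at these times and fell at 7 days (-1.06 ± 0.25) and 14 days (-0.98 ± 0.25). Icam1, an adhesion gene of endothelium (1.73 ± 0.21), and Selp, the P-selectin gene of endothelium and platelets (1.69 ± 0.18), rose at 3 h. Selp was called higher at all 8 CpG times, down to 0.67 ± 0.18 at 14 days, where quantile normalization ended the call. Fgr, a myeloid Src-family kinase, rose at 24 h (1.28 ± 0.27) and 72 h (1.03 ± 0.27), and Itgam, the CD11b integrin chain, at 24 h (0.83 ± 0.18), 72 h (0.64 ± 0.18), 9 days (0.97 ± 0.18) and 14 days (0.64 ± 0.18). At 72 h 4 rose and 1 fell, at 5 days 1 rose and 3 fell, with the PI3Kγ gene Pik3cg (-0.76 ± 0.16) and Dock2 (-0.67 ± 0.18), which drives migration through Rac, among them. At 7 days 2 rose and 2 fell, at 9 days 5 rose and at 14 days 2 rose and 1 fell. In either direction 15.0% of all genes were called at 72 h, 30.9% at 5 days and 15.6% at 7 days. The share of the list called was below that of all genes at 5 days and near it at 7 days. At 9 and 14 days 13.5% and 4.54% of all genes were called. With control ODN 6 rose, among them Selplg, the ligand of P-selectin (1.03 ± 0.22, not called after quantile normalization), and Socs3 (0.92 ± 0.27, a call lost in 12 of 16 alternatives). Selp (0.79 ± 0.18) and Itgam (0.67 ± 0.18) also rose with control ODN, calls lost in 7 and 12 of 17 alternatives. With control ODN 2.45% of all genes were called higher. The call of Itgam at 14 days was lost in 11 of 17. Between CpG and control ODN 6 were higher, with Rgs1 at 2.50 ± 0.27 and Stat3 at 1.83 ± 0.30, and 5 lower, with Itgb2 at -0.82 ± 0.23 and Itgam at -0.73 ± 0.20. In that comparison 9.23% of all genes were called higher and 11.5% lower. The list median was 0.12 at CpG 3 h against untreated spleens, and that of all genes -0.02.

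**Figure D5:**
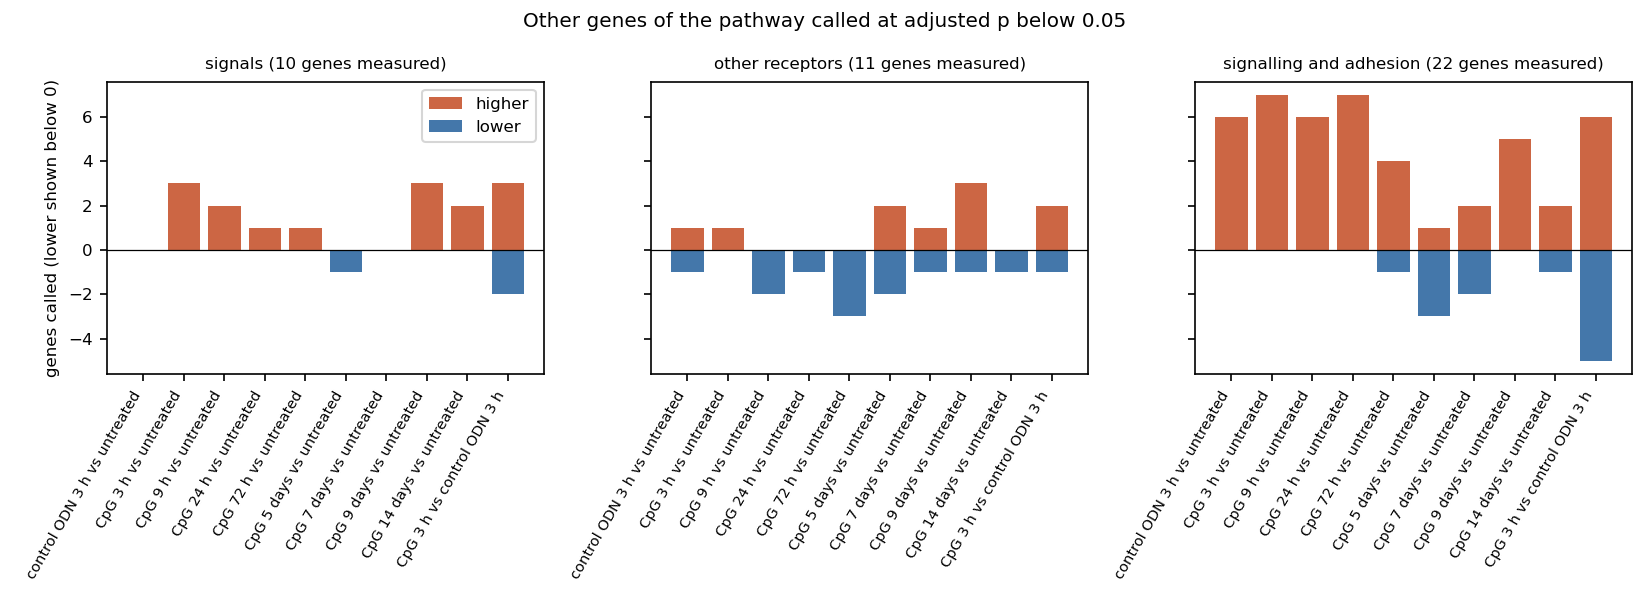
Number of genes called higher (above 0) and lower (below 0) in 3 lists of other genes of the pathway, by comparison. Signalling and adhesion genes reach 7 of 22 higher at 3 h and at 24 h, where 7.70% and 8.03% of all genes were called higher. The other receptors have at most 3 of 11 higher (9 days, 8.40% of all genes) and at most 3 of 11 lower (72 h, 6.01%).

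The genes whose course was most like that of each member were sought among 12327 genes with a gene name proper, measured on all arrays, by Pearson's r over the 10 group means, for the 6 members with a value on all arrays. Nearest to Cxcl2 were Nfkbiz, an atypical IκB protein (r = 0.975), Tnfaip3, which encodes the inhibitor A20 (0.975), and Tnf (0.973). All of them were highest at CpG 3 h and second at 9 h, as Cxcl2 was. Nearest to Fpr2 were Snx10 (0.966), Calhm6 (0.948) and P2ry2 (0.940). Nearest to Ltb4r1 were Vpreb2, part of the pre-B cell receptor (0.979), Nup210l (0.976) and Gpr176 (0.967), each lowest at 5 days. Cxcr2 was nearest to Itprid2 (0.947), Trpv4 (0.945) and Uvrag (0.934), and Csf3r to Pnpla2 (0.925), the neutrophil protein gene S100a9 (0.900) and Krt42 (0.897). Cxcl5 had no near match, with Macrod2 (0.798), Tmem82 (0.783) and Ubd (0.779). Among the members, Cxcl1 and Cxcl2 had r = 0.938 over the 10 group means, Cxcr2 and Csf3r 0.536, Cxcl5 and Cxcl1 0.163, and Cxcl5 and Ltb4r1 -0.534. These are descriptions over means that share arrays and reference.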

How the data were processed

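TRIzol extraction of spleen RNA is stated in the labels' protocols. The authors deposited 1 value per feature and array, read here as a log2 ratio of spleen (Cy5) to reference (Cy3), for 30601 features. Its base, its sign, and how arrays were normalized and spots filtered are not stated in the labels. Base and sign were inferred from the range, -6.86 to 9.78, and from high values of spleen markers. Of the features 23485 had 1 gene symbol, 179 several and 6937 none in the platform annotation. Features of a symbol were averaged over those with a value. Each gene was fitted by least squares with 1 coefficient per group over all 42 arrays, with variances moderated by limma 3.58.1 (R 4.3.3), on genes with at least 3 values in both groups. The code was tested on simulated data. Tests are 2-sided. Members, lists, tests and comparisons were chosen with earlier results of these data known. Every member is named, with up to 4 called genes of each pathway list on either side and the 3 most alike genes of a member. The lists were signals, other receptors, signalling and adhesion, and markers of neutrophils, monocytes and macrophages, platelets, endothelium and stroma, B cells, T cells, erythroid cells, pancreas acinar cells, and mast cells and eosinophils. Runs are arrays whose database numbers lie within 12 of the next. Alternatives changed scaling, missing-value filter, unit, arrays fitted and blocks, and left out each array in turn. Precision is limited by the number of arrays. Of 861 array pairs 0 were identical.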

Additional observations from a re-analysis of the deposited data

Results flagged for a closer look

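In each group of 4 to 10 arrays the array farthest from the rest was compared with the group's range for every member. Of 69 such groups 4 held an array farther out than the critical value of Dixon's test, and chance alone gives about 1 in 20. Control ODN replicate 3 was the highest of its group for Cxcl1, at -3.617, where the others lay between -4.179 and -4.104. CpG 9 h replicate 4 was the highest for Cxcl2, at 1.763, where the others lay between 0.009 and 0.218. The same array was the lowest of its group for Csf3r, at 0.906, where the others lay between 1.819 and 1.927. CpG 14 days replicate 1 was the lowest for Ltb4r1, at 1.251, where the others lay between 2.029 and 2.128.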

How the results depend on the processing

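Of 1180 alternative values for the members' differences, 1104 kept their side of the threshold, 65 lost a call, 11 gained one, and 0 called differences changed sign. Among the 1104 are differences without a call that changed sign. For Cxcl1 at 24 h the difference was -0.11, and 0.12 after quantile normalization. The counts of members called moved more. Leaving out each array in turn gave 3 to 4 at 3 h and at 9 h (4 and 4 with all arrays), 0 to 1 at 24 h (1), 3 to 3 at 72 h (3), 1 to 2 at 5, 7 and 9 days (2 each), 0 to 0 at 14 days (0), 0 to 2 with control ODN (1), 3 to 4 for CpG against control ODN (4), 6 to 7 for the F test (7), 6 to 12 for successive times (10, with 6 reached without CpG 9 h replicate 3) and 5 to 8 within the shared run (8). Untreated arrays and same-numbered arrays of the other groups correlated in their deviations by -0.218 to 0.456 over 36 pairs, 15 of them above 0.1. Differently numbered arrays were not compared, so this cannot show whether the replicate numbers pair the arrays. The replicate block called 2 members at 9 h, 0 at 24 h and 1 at 9 days. With a fixed term for each run, fitted to genes without a missing value, the contrast rests on 1 untreated array. It called 1 of 6 members at 3 h (Cxcl2), 0 at 9 h and 0 at 24 h. This term could not be estimated for later CpG times or control ODN against untreated. Runs as a random block (correlation 0.0245) called 1 at 5 days. Fits of the groups compared alone called 2 at 9 h, 1 at 7 days and 0 with control ODN. Single features called 1 at 5, at 7 and at 9 days. Without the 8 arrays with over 1000 missing values 1 was called at 9 h, 0 at 24 h, 1 at 9 days, 5 between successive times and 5 within the shared run. Quantile normalization called 2 with control ODN. Over all genes the count called ran from 392 to 2300 at 3 h (1774 as reported), 142 to 1618 at 9 h (1289), 133 to 2248 at 24 h (1656), 879 to 3019 at 72 h (2267), 2577 to 6442 at 5 days (4633), 82 to 1125 at 14 days (681), 0 to 947 with control ODN (531) and 2004 to 4504 for CpG against control ODN (3124). The cause of these moves was not tested.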

Other observations

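Within the neutrophil marker list, genes differed in when they were called, and those named here were chosen after their values were seen. At 72 h the primary granule genes Ctsg (2.08 ± 0.34), Prtn3 (1.61 ± 0.30), Mpo (1.41 ± 0.26) and Elane (1.01 ± 0.24) rose over untreated spleens, by the limma fit with adjusted p below 0.05. Ngp (0.78 ± 0.46), Ltf (0.40 ± 0.40) and Camp (0.40 ± 0.33), of the secondary granules, did not pass at that time, while Mmp8 (2.94 ± 0.38) and Lcn2 (2.64 ± 0.32), also of the secondary granules, had risen at 3 h. The difference in timing was not tested. At 9 days Ngp (4.52 ± 0.46), Ltf (3.89 ± 0.40) and Camp (3.79 ± 0.33) had the largest differences of the list. Mmp9, a gelatinase of mature neutrophils, fell by 0.49 ± 0.17 at 72 h, by 0.64 ± 0.17 at 5 days and by 0.59 ± 0.17 at 7 days, and rose by 0.83 ± 0.17 at 14 days. Among granulocytes of other kinds, the basophil protease gene Mcpt8 rose at 72 h (1.44 ± 0.28) and was highest at 9 days (2.93 ± 0.28), and the eosinophil genes Epx and Prg2 rose at 9 days (2.81 ± 0.41 and 2.36 ± 0.44) and 14 days (3.20 ± 0.41 and 2.26 ± 0.44). For the times from 72 h on, run and group cannot be told apart in the comparison with untreated spleens.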
